A study of Mus musculus with 6 samples.

Results

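H3K27ac was followed at 1050 peaks that lie at protein-coding promoters, carry no OCT4 site themselves and have a distal OCT4-site peak nearby, and these are called adjacent promoters here. They were chosen by position only, from all 31131 H3K27ac peaks of the study (3.37%). A peak was taken if the authors' table marks no OCT4 binding site within 1 kb of it, if a protein_coding transcript start of GENCODE vM21 lies within 1 kb, and if the gap to at least 1 peak with an OCT4 site and no transcript start of its own within 1 kb is at most 20 kb. They make up 10.1% of the 10412 coding promoter peaks without an OCT4 site and belong, by the nearest coding start, to 854 genes, of which 183 hold more than 1 of them. Of the 1050 peaks, 1034 had an RPKM (reads scaled by the length of the peak and the size of the library) of at least 0.5 in the mean of either condition and were tested. The other 16, at 12 genes such as Gm3460, Gm21887 and Zfp993, reached at most 0.503 RPKM in any library.

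Promoters are the stretches where transcription begins, whereas enhancers are regulatory sequences that act on promoters from a distance. Acetylation of lysine 27 of histone H3 (H3K27ac) is laid down by the acetyltransferases p300 and CBP at both when they are active. OCT4, the product of Pou5f1, is a POU-domain factor that binds an octamer sequence, often next to SOX2, and is known to act in embryonic stem cells (ESCs) mostly at distal enhancers of genes for the naive pluripotent state. A promoter next to such an enhancer, but without a marked OCT4 site of its own, is thus a place where acetylation may be read apart from a marked local site. The mark rests on peaks that the authors called from published OCT4 ChIP-seq of another mouse ESC line. OCT4 binding in the cells studied here was not measured in these data, so a promoter without the mark may still bind OCT4.

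All 6 libraries came from ZHBT-O4AID mouse ESCs of strain 129SV, which lack endogenous Oct4 (Oct4-/-) and carry a TetOFF Oct4 transgene, a CAG-driven Oct4AID transgene and CAG-driven Tir1. They were grown in N2B27 with PD03, Chiron and mLIF, with doxycycline to keep wild-type Oct4 off, so that the only OCT4 carries the auxin-inducible degron (AID). The 3 uninduced libraries were left untreated, and the 3 IAA libraries were treated with 500 μM IAA (indole-3-acetic acid, an auxin) for 1.5 h, after which TIR1 directs the tagged protein to degradation. The comparison asks what happens to acetylation at these promoters soon after loss of OCT4. The line is a single engineered line, the replicates are separate immunoprecipitations (IPs), and p-values measure the spread between these IPs, which may be technical. The authors called peaks on pooled uninduced IPs alone, so a promoter acetylated after IAA only would not be in the table. Library sizes recovered from the values ran from 31634480 to 39547452 reads, and the median adjacent promoter held 94 to 121 reads in the uninduced and 57 to 72.5 reads in the IAA libraries, a counting error of 9.09% to 13.2%. The ESC label was checked against marker genes, and 12 of 12 ESC markers had a promoter peak above the threshold, against 0 of 6 for trophoblast, 1 of 5 for primitive endoderm (Gata6), 2 of 5 for neural cells (Pax6 and Sox1), 1 of 4 for mesoderm (Mesp1) and 0 of 4 for fibroblasts. Of these markers, Pou5f1, Klf2, Tfcp2l1, Zfp42, Fgf4, Utf1 and Gata6 have an adjacent promoter.

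The adjacent promoters and the distal OCT4-site peaks beside them were different kinds of sequence. The promoters had a median GC content of 57.9% and an observed to expected CpG ratio of 0.675, near the 58.4% and 0.690 of coding promoters far from OCT4-site peaks. The distal OCT4-site peaks beside them had 48.4% and 0.215. Windows of 600 bp around each tested peak's middle were searched on both strands. The octamer ATGCAAAT was found in 1.74% of adjacent promoter windows, 1.26% of far promoter windows, 3.81% of windows of the distal neighbours and 2.68% of all windows. With any base at the fifth position (ATGCNAAT, which includes ATGCAAAT) the shares were 2.61%, 2.58%, 8.72% and 5.0%. The SOX word CATTGT was in 13.2%, 12.3%, 28.0% and 20.2%, and the GC box GGGCGG, bound by SP/KLF factors, in 62.9%, 67.7%, 12.4% and 37.1%. In sequence the adjacent promoters thus resembled other promoters in these counts, which are descriptions with no test. Among the 1034 tested promoters, the 18 with ATGCAAAT in the window had a median log2 change of -0.56 and the 1016 without it -0.58. In the RefSeq set of promoter windows (GRCm38.p6, 250 bases before to 50 after a start), 643 of the 854 genes were found, and GGGCGG stood in 65.1% of their windows, against 35.9% of all. The set of all windows was not limited to promoters with an H3K27ac peak. Against far promoters, which do have one, the share above was lower at adjacent promoters (62.9% against 67.7%).

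The stretches below show both kinds of sequence at loci described further on, as examples and not as features shared by the whole set, since 76 of the 736 distal peaks paired with a tested promoter (10.3%) held ATGCNAAT. In the 102 pairs whose distal peak held it, that peak had a median log2 change of -0.70 and the promoter -0.56. In the 915 pairs without it these were -0.72 and -0.59. Stretches of 48 bases from distal OCT4-site peaks are centred on a match to ATGCNAAT, in capitals, written 5′ to 3′ on the strand of the match (GRCm38). They were taken from the peaks within 20 kb of the promoters named in the text.
Tet2 distal peak in an intron of Tet2 (chr3:133524137-133524184, plus strand): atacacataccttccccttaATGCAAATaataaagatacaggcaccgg
Tet2 distal peak, also in an intron of Tet2 (chr3:133525299-133525346, minus strand): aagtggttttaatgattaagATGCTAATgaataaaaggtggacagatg
Socs3 distal peak between genes (chr11:117976244-117976291, plus strand): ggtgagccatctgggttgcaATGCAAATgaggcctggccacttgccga
Sall1 distal peak between genes (chr8:89053178-89053225, minus strand): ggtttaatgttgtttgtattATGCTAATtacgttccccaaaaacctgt
Gls2 distal peak between genes (chr10:128187404-128187451, minus strand): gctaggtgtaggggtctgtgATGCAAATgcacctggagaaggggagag
Sort1 distal peak in an intron of Sort1 (chr3:108304051-108304098, minus strand): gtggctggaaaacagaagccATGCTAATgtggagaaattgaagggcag

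The promoter stretches are the 120 bases before the RefSeq start on the gene's strand (GRCm38.p6), where no annotated exon lies. Capitals mark GGGCGG or its reverse complement, CCGCCC. Cobl, Tfcp2l1, Spry2 and Tet2 are shown because their promoter peaks were among those that fell most, and Sall1 because it fell little.
Cobl promoter (chr11:12464961-12465080, minus strand): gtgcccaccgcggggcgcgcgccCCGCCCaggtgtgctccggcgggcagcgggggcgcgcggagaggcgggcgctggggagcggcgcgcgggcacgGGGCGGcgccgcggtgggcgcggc
Tfcp2l1 promoter (chr1:118627825-118627944, plus strand): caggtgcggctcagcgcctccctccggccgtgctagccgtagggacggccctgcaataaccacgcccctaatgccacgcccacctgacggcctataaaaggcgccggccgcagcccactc
Spry2 promoter (chr14:105896820-105896939, minus strand): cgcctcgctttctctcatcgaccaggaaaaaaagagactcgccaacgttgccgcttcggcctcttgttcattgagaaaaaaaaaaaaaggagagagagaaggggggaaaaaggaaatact
Tet2 promoter (chr3:133544391-133544510, minus strand): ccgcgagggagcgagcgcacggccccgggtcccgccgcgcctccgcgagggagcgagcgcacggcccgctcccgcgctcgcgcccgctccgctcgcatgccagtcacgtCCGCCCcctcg
Sall1 promoter (chr8:89044163-89044282, minus strand): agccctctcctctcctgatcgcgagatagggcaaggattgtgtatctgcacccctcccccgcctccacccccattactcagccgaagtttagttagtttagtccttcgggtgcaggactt
These promoter stretches hold no ATGCAAAT. Their GC content was 89.2% at Cobl, 69.2% at Tfcp2l1, 45.8% at Spry2, 82.5% at Tet2 and 55.8% at Sall1. The Cobl and Tet2 stretches lie outside the promoter peaks of these genes described below. The GC content of those peaks was lower, 49.7% and 56.7% at Cobl and 48.8% and 72.0% at Tet2. The peaks of Tfcp2l1 and Spry2 had 62.0% and 53.9%, and those of Sall1 61.4% and 60.8%.

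H3K27ac at the adjacent promoters was lower in all 3 IAA libraries than in the uninduced ones. On the scale log2(RPKM + 0.1), used for all log2 values here, the median adjacent promoter stood at 1.91, 1.90 and 1.81 in uninduced replicates 1, 2 and 3 and at 1.47, 1.24 and 1.12 in IAA replicates 1, 2 and 3. The means were 1.87 ± 0.056 and 1.27 ± 0.18 (SD, n = 3 each), a difference of -0.60. The groups do not overlap, and an exact permutation test, two-sided, gave p = 0.1, which is the lowest that 20 labellings allow. Most of this fall was shared by all peaks. The median over all 26457 tested peaks differed by -0.55, and since RPKM is scaled to library size, with no spike-in or input library used here, a general loss of acetylation and a smaller portion of reads inside peaks cannot be told apart. Changes of single promoters are therefore also given relative to the median peak, where libraries are centred on it.

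**Figure D1:**
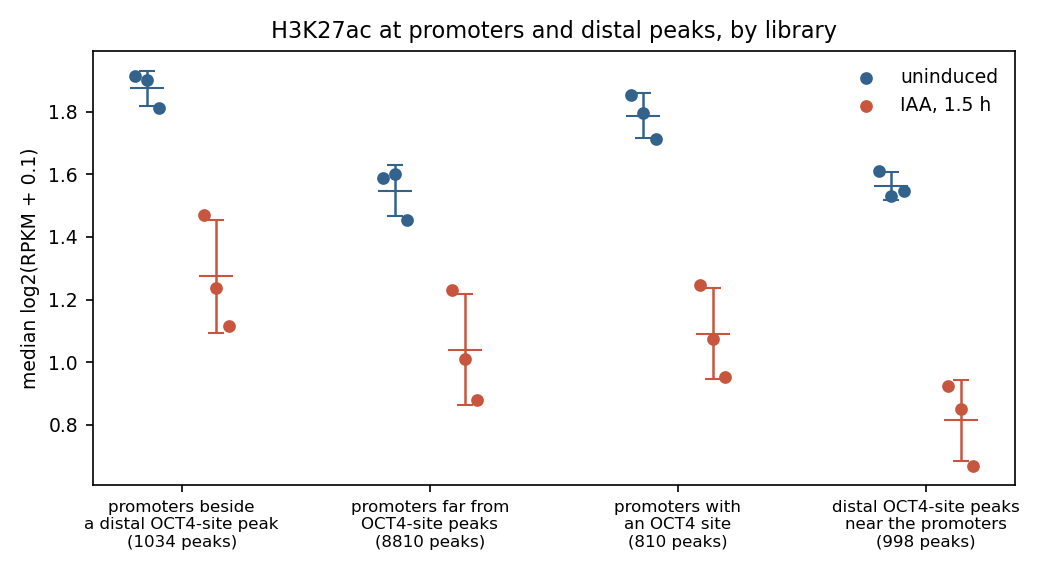
Median H3K27ac, as log2(RPKM + 0.1), over 4 sets of tested peaks. Each point is 1 library, horizontal bars are means over 3 libraries and error bars SD. In each set the 3 IAA points lie below the 3 uninduced points, and the distal neighbours reach the lowest level after IAA.

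Tested peak by peak with limma and Benjamini-Hochberg adjustment over all 26457 peaks, 834 of the 1034 adjacent promoters (80.7%) were lower after IAA at an adjusted p under 0.05, where 68.2% of all tested peaks were. Among far promoters, those with no OCT4-site peak within 20 kb, 6065 of 8810 (68.8%) were lower. Among coding promoters with an OCT4 site 691 of 810 (85.3%) were, and among the 998 distal OCT4-site peaks beside the adjacent promoters 886 (88.8%). Without uninduced replicate 1 the count for adjacent promoters dropped to 519. By limma 0 of the 1034 were higher, 0 also at an unadjusted p under 0.05 and in the fit without trend and robust settings, while 1, Chka, was higher without IAA replicate 2. A change above 0 was found in 6. In 808 (78.1%) each IAA library was below each uninduced library, which held for 71.2% of all tested peaks. The change per promoter ran from -1.92 to 0.24 with a median of -0.58 and quartiles of -0.71 and -0.46. Far promoters had a median of -0.51, OCT4-site promoters -0.63 and the distal neighbours -0.75.

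**Figure D2:**
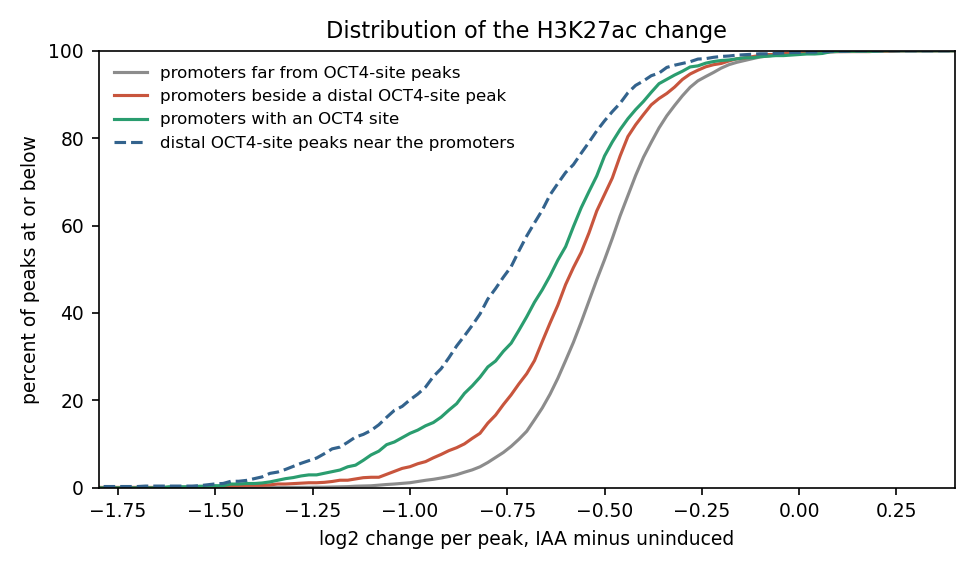
Cumulative distribution of the log2 change per peak (IAA minus uninduced) for the same 4 sets. The curve of the adjacent promoters lies between those of far promoters and OCT4-site promoters, and that of the distal neighbours lies farthest to the left.

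In each library the median adjacent promoter stood above both the median far promoter and the median OCT4-site promoter, and its change lay between theirs. Its level exceeded that of far promoters by 0.32, 0.30 and 0.36 in the uninduced and by 0.24, 0.23 and 0.24 in the IAA libraries, a change of -0.093, and the groups were apart (p = 0.1 by exact permutation, the lowest that 3 against 3 can reach). These promoters were thus more acetylated to begin with, with a median of 3.57 RPKM against 2.82, and part of that lead was lost after IAA. Within 10 equal groups of like mean RPKM the change was -0.071. Against promoters with an OCT4 site, the median was higher by 0.059, 0.11 and 0.097 in the uninduced and by 0.22, 0.16 and 0.16 in the IAA libraries, so that the adjacent promoters kept more of the mark by 0.095 (p = 0.1, exact permutation). Within groups of like GC content this difference was 0.044. Relative to the median peak, 24 adjacent promoters (2.32%) were lower, where 1.97% of all tested peaks were, which is near the background. The share was 0.182% among far promoters, 6.30% among OCT4-site promoters and 100 of 998 among the distal neighbours. Relative to the median peak, Dusp1, a phosphatase of MAP kinases named here after its value was seen, was the only adjacent promoter called higher (0.43, adjusted p = 0.0458), where 0.544% of all tested peaks were. On the deposited scale Dusp1 had a change of -0.12.

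Adjacent promoters closer to a distal OCT4-site peak stood higher before IAA and lost more. The gap, from peak edge to peak edge, ran from 245 to 19955 bp with a median of 9487 bp. The median change was -0.65 for the 71 tested promoters under 2 kb from the distal peak, -0.61 for the 158 at 2 to 5 kb, -0.59 for the 317 at 5 to 10 kb and -0.55 for the 488 at 10 to 20 kb. Uninduced levels went the same way, with medians of 4.46, 3.95, 3.62 and 3.28 RPKM. Shares called lower were 88.7%, 81.0%, 81.4% and 78.9%, and relative to the median peak 8.45%, 4.43%, 1.58% and 1.23%. Taken per library against far promoters, the lead of the nearest class was 0.67, 0.68 and 0.64 in uninduced and 0.42, 0.43 and 0.36 in IAA libraries, a loss of 0.26. The farthest class led by 0.25, 0.20 and 0.27 before and 0.18, 0.15 and 0.19 after IAA, a loss of 0.067. In all 4 classes uninduced and IAA libraries did not overlap (p = 0.1 each, exact permutation test). The classes differ in level as well as in distance, and the part of the level in the change was not tested within them. Just inside the limit of the rule, 216 promoters at 15 to 20 kb had a median change of -0.55, and just outside it 206 promoters at 20 to 25 kb had -0.56, so the limit marks no step in the change.

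**Figure D3:**
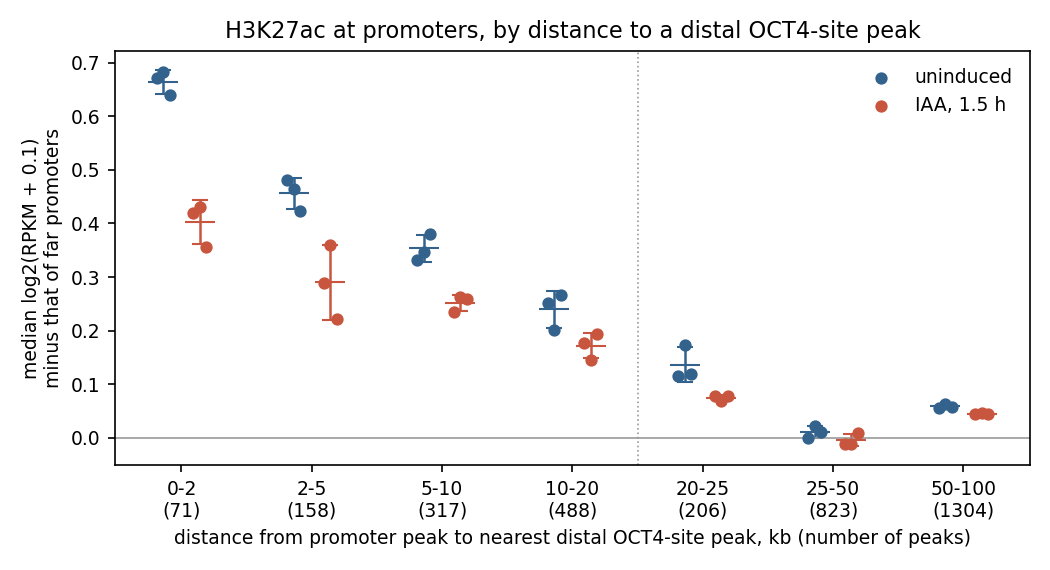
Median log2(RPKM + 0.1) of promoters minus that of far promoters, per library, by distance to the nearest distal OCT4-site peak in kb. Points are libraries, horizontal bars means of 3 and error bars SD. The dotted line marks the 20 kb limit, right of which promoters belong to the far set. The gap between uninduced and IAA points narrows from the nearest class, where it is 0.26, outwards.

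Promoters with more distal OCT4-site peaks around them showed the same order. Of the 1050, 718 had 1 such peak within 20 kb, 268 had 2 and 64 had 3 to 6. Among those tested, median changes were -0.57, -0.59 and -0.72, and the lead over far promoters shrank by 0.081, 0.11 and 0.31, each without overlap of the libraries. The 61 tested promoters with 3 or more had the highest uninduced level, 4.61 RPKM against 3.41 with 1. Distance and number go together, and among tested promoters with 1 distal peak only, the median changes were -0.62 under 5 kb, -0.57 at 5 to 10 kb and -0.55 at 10 to 20 kb. There the lead over far promoters shrank by 0.13, 0.090 and 0.062, and in the last class the libraries overlapped (p = 0.2, exact permutation).

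Each adjacent promoter was next set against its nearest distal OCT4-site peak, which gave 1017 pairs of tested peaks with 736 distal peaks, since 508 pairs share their distal peak with another. The distal peak usually lost more. The median of promoter minus distal log2 values was 0.29, 0.33 and 0.20 in the uninduced and 0.51, 0.34 and 0.47 in the IAA libraries, a rise of 0.17 with no overlap (p = 0.1 by exact permutation). The libraries overlapped (p = 0.2, exact permutation) with a pseudocount of 0.5 or 1, with no threshold, and with starts of any transcript of a coding gene, where the rise was 0.12, 0.088, 0.16 and 0.15. The promoter fell less than its distal peak in 712 of 1017 pairs (70.0%), by a median of 0.14 over all pairs. Both peaks were called lower in 736 pairs, only the distal peak in 152, only the promoter in 90 and neither in 39. No single pair passed an adjusted p of 0.05 in limma on the log2 ratio (0 of 1017, a share of 0%), the smallest adjusted p being 0.0856. At an unadjusted p under 0.05 there were 146 pairs, in 128 of which the promoter fell less and in 18 more. Without IAA replicate 3, 11 pairs passed. The distal peak lay inside the promoter's own gene in 382 pairs, between genes in 433 and in another gene in 202, and promoters changed by medians of -0.60, -0.58 and -0.57 in these.

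The change at the promoter correlated with that of its distal peak, most where the pair was close and weakly at 10 to 20 kb. Over 1017 pairs the Pearson correlation of both changes was 0.30 (Spearman 0.27). It was 0.51 (0.42) over 226 pairs under 5 kb apart, 0.31 (0.31) over 309 pairs at 5 to 10 kb and 0.14 (0.15) over 482 pairs at 10 to 20 kb. These are descriptions across pairs within the same 6 libraries, and pairs share distal peaks and the libraries' scaling. Pairs with a distal peak that lacks an OCT4 site were not compared, so whether the correlation is particular to OCT4-site peaks was not tested. In the 254 pairs whose distal peak fell most (median -1.08) promoters changed by a median of -0.65, in the next groups by -0.62 and -0.54, and in the 255 whose distal peak fell least (median -0.46) by -0.53. 

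**Figure D4:**
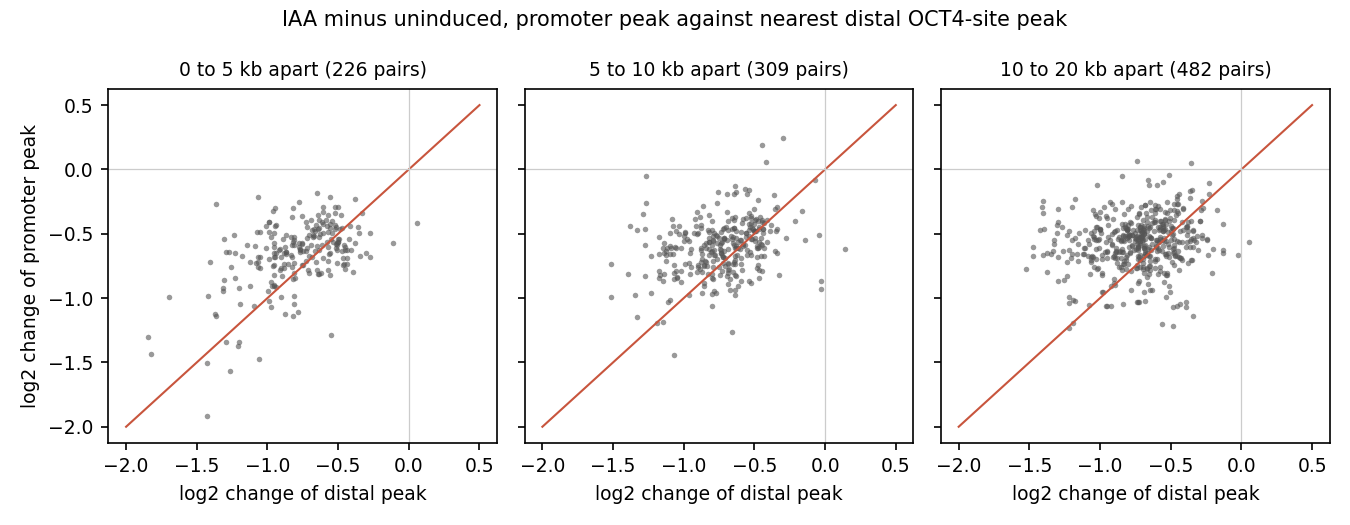
Log2 change of each promoter peak against that of its nearest distal OCT4-site peak, for pairs in 3 classes of distance. Each point is 1 pair, and on the diagonal both changed alike. Most points lie above the diagonal, and they follow it most closely in the class under 5 kb, where the correlation is 0.51.

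The largest fall was at Cobl, which encodes the actin nucleator cordon-bleu. Its promoter peak (chr11:12465183-12465507, GRCm38, upstream of the start and outside exons) had 5.93, 4.20 and 4.94 RPKM in uninduced replicates 1 to 3 and 0.995, 1.54 and 1.25 RPKM in IAA replicates 1 to 3. The log2 change was -1.92 ± 0.19 (SE, limma, adjusted p = 1.10e-05), or -1.36 relative to the median peak, and a second Cobl peak fell by 1.50 on the log2 scale. Cobl has 4 distal OCT4-site peaks within 20 kb, the nearest 931 bp away. Tfcp2l1, a transcription factor of naive pluripotency that also has 4, came next. Its promoter peak (chr1:118627624-118628589) spans the start and overlaps an exon, and went from 5.45, 6.35 and 4.76 RPKM to 2.25, 1.67 and 1.52 RPKM. This is a change of -1.56 ± 0.18 (adjusted p = 1.74e-05), or -1.01 relative to the median peak. The distal peak 1097 bp away, between genes, changed by -1.26.

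Jam2, Pcsk6 and Phc1 completed the 6 largest falls. Jam2, a junctional adhesion molecule, fell from 8.78, 8.18 and 7.83 RPKM to 3.68, 2.66 and 2.51 RPKM, a log2 change of -1.47 ± 0.16 against -1.06 at the distal peak in Jam2 itself. Phc1, a subunit of Polycomb repressive complex 1, fell from 6.33, 5.35 and 5.44 RPKM to 2.34, 2.03 and 1.81 RPKM, a change of -1.43 ± 0.16 against -1.82 at its distal peak. Pcsk6, a proprotein convertase that processes TGF-beta family ligands, changed by -1.44 ± 0.23 from 2.31, 3.42 and 2.36 RPKM to 0.792, 1.22 and 0.780 RPKM, and relative to the median peak it missed the threshold (adjusted p = 0.0517). Of the 24 promoters lower relative to the median peak, those outside the named groups, picked after their values were seen, include Alpl, the alkaline phosphatase used as an ESC stain (-0.79 relative to the median peak), Epn2 (-0.73), Trmt1 (-0.68 and -0.49), Mreg (-0.59), Nsf (-0.51) and Rest, a repressor of neuronal genes (-0.48).

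Pluripotency genes were represented by 19 adjacent promoter peaks of 15 genes out of 44 listed. All 19 had changes below 0, from -1.56 to -0.40 with a median of -0.76 against -0.55 over all tested peaks, and 18 were called lower. Among all tested peaks 97.7% changed by 0 or less and 68.2% were called lower, so these counts by themselves say little about the list. Promoter peaks of the same list had medians of -0.82 over 11 far peaks and -0.89 over 25 OCT4-site peaks. The larger fall of this list was thus not particular to adjacent promoters. Of the 19, 13 fell more than the median peak, against 49.1% of all tested peaks and 55.2% of adjacent promoters. Relative to the median peak, 4 were called lower (1.97% of all tested peaks were), those of Tfcp2l1, Jam2, Klf2 and a Tbx3 peak. Klf2, a Krüppel-like factor of the naive state, had 6.25, 6.55 and 6.01 RPKM in uninduced and 3.73, 3.17 and 2.26 RPKM in IAA replicates 1 to 3, a change of -1.04 ± 0.17 (adjusted p = 0.000263). At Tbx3, a T-box factor, the peak 235 bp from a start went from 6.65, 6.46 and 6.08 RPKM to 3.38, 2.85 and 2.94 RPKM (-1.04 ± 0.15) and the stronger peak 49 bp from a start from 9.04, 7.37 and 7.55 RPKM to 5.58, 4.52 and 4.68 RPKM (-0.69 ± 0.15). The distal OCT4-site peak beside Tbx3 did not pass the test (-0.44, adjusted p = 0.0673), so here the promoter changed more than its neighbour, a difference that did not pass either (-0.25 and -0.61, adjusted p = 0.657 and 0.237).

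Other promoters of this list fell to a middling degree. Foxd3, a forkhead factor, changed by -1.01 ± 0.20, Zfp42 (the ESC marker REX1) by -0.91 ± 0.16 and Fgf4, the autocrine FGF of ESCs, by -0.90 ± 0.20. Fgf4 had 8.32, 7.69 and 6.37 RPKM before and 5.98, 3.10 and 3.23 RPKM after IAA, so that its IAA replicate 1 stayed close to the lowest uninduced value. Mycn (-0.76 ± 0.17) and Spp1 (-0.76 ± 0.19) also fell without overlap of the libraries.

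Nearer to the median peak were Pou5f1, Zfp281, Sall1, Utf1 and the Trim28 peaks at -0.40 and -0.47. The Pou5f1 peak (chr17:35507449-35507728) lies at a coding start, and the RefSeq start nearest to that start is 1325 bases downstream. Whether either is the gene's main start was not examined. The Pou5f1 peak had 8.61, 8.61 and 8.52 RPKM before and 5.88, 6.66 and 5.17 RPKM after IAA. Its change was -0.54 ± 0.14, or 0.01 relative to the median peak, while its nearest distal OCT4-site peak changed by -0.89. The peak overlaps an exon, and if the Oct4 transgenes of the line hold this stretch, reads from them cannot be told apart there. Whether they hold it was not examined. Sall1, a spalt-like zinc finger factor, had changes of -0.40 and -0.49 at 2 peaks, and in the former IAA replicate 3 (5.73 RPKM) exceeded uninduced replicate 3 (5.60 RPKM). Trim28, a corepressor that silences retroviral elements, had -0.40, -0.78 and -0.47 at 3 peaks. The Trim28 peak at -0.78, which spans the start, fell about as much as those of Mycn and Spp1. The calls of both Sall1 peaks were lost without uninduced replicate 1, uninduced replicate 2 or IAA replicate 2, with adjusted p between 0.0601 and 0.262. Those of the Trim28 peaks at -0.40 and -0.47 were lost without uninduced replicates 1 or 2 or IAA replicates 2 or 3, the former also without uninduced replicate 3, and that of Zfp281 (-0.58 ± 0.20) without uninduced replicate 1 or IAA replicates 2 or 3. Utf1, a chromatin factor of ESCs, did not pass (-0.49 ± 0.23, adjusted p = 0.0693), with 1.65, 1.50 and 2.0 RPKM before and 1.50, 1.37 and 0.813 RPKM after IAA, and passed at 0.0301 without IAA replicate 1.

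**Figure D5:**
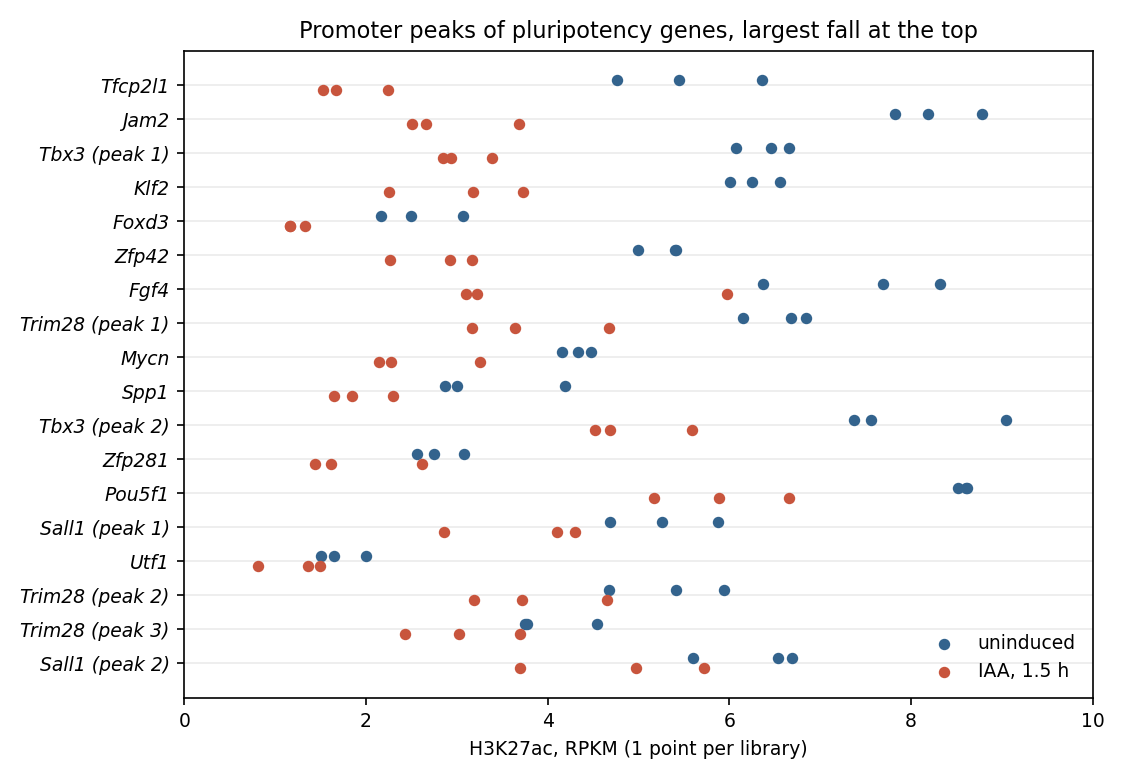
H3K27ac in RPKM at 18 adjacent promoter peaks of pluripotency genes, with 1 point per library and rows ordered by log2 change. Uninduced and IAA points are apart in most rows, nearly touch at Utf1 and the weaker Trim28 falls, and overlap at Zfp281 and at 1 Sall1 peak.

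Genes of the signalling pathways that sustain or oppose ESC self-renewal formed smaller groups. All their tested peaks were called lower, as were 68.2% of all tested peaks and 80.7% of adjacent promoters, and groups of this size cannot be told from those shares by their counts. LIF and JAK-STAT genes, whose signal maintains naive ESCs, had 6 of 6 peaks lower at 4 of 19 listed genes, with a median change of -0.75. They include the ligand Lif (-0.70), its receptor Lifr (-1.06), the feedback inhibitor Socs3 (-0.81 and -0.68) and the kinase Pim3 (-0.81 and -0.52), and 0 were lower relative to the median peak. Lifr was low throughout, with 2.44, 2.36 and 1.83 RPKM before and 0.906, 1.16 and 0.944 RPKM after IAA. Socs3 had 6.05, 5.89 and 4.63 RPKM before and 3.42, 3.10 and 2.75 RPKM after IAA at its peak over the start, and the distal peak with the octamer shown above, which is not its nearest, changed by -0.80.

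The FGF-ERK cascade, which moves ESCs towards differentiation, had 4 of 4 peaks lower at 4 of 32 listed genes (median -0.81). They include the ligand Fgf4, the kinase Map2k1 (-0.71) and the feedback inhibitor Spry2, which was also lower relative to the median peak (-0.79, adjusted p = 0.00187). The Spry2 peak (chr14:105895754-105896907), over the start and an exon, went from 9.21, 9.21 and 7.91 RPKM to 3.69, 3.29 and 3.20 RPKM, a change of -1.34 ± 0.15. Its distal peak 1624 bp away changed by -1.29, a difference of -0.05 ± 0.19, and at the promoter each IAA value was under the lowest uninduced value by more than the spread within either group. Of 43 Wnt genes, the receptors Fzd5 and Fzd7 had a peak each and both were lower. Fzd5 went from 5.63, 5.18 and 4.93 RPKM to 2.18, 1.98 and 2.04 RPKM (-1.30 ± 0.15), and its distal peak, inside Fzd5, changed by -1.84. The call of Fzd7 (-0.80 ± 0.24) was lost without uninduced replicate 1 (adjusted p = 0.0720). TGF-beta and BMP genes had 4 of 4 peaks lower at 2 of 40 listed genes (median -0.64). The ligand Nodal changed by -0.58 ± 0.16 and the corepressor Tgif1, with 3 to 4 distal OCT4-site peaks around it, by -0.64, -0.69 and -0.64 at 3 peaks, all near the median peak.

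Among DNA methylation genes, 3 of 3 peaks at 2 of 19 listed genes were lower (68.2% of all tested peaks were). Tet2, which oxidizes 5-methylcytosine, had peaks at 2 starts, with changes of -1.19 ± 0.16 and -1.19 ± 0.19. The former (chr3:133542852-133544327) went from 6.81, 6.07 and 5.99 RPKM to 2.74, 3.03 and 2.35 RPKM. Its nearest distal OCT4-site peak changed by -1.19, and the 2 distal peaks whose octamers are printed above by -1.20 and -1.21. Apobec1, a cytidine deaminase, fell by 0.82 on the log2 scale while its distal peak did not pass (-0.32, adjusted p = 0.193).

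Promoters of genes used by most cells changed close to the median peak, and the counts that follow stand against 68.2% lower among all tested peaks and 80.7% among adjacent promoters. Of 16 peaks at 13 of 92 histone modifier and remodeller genes, 13 were lower (median -0.59). These include the PRC2 factors Suz12 (-0.68), Mtf2 (-0.76) and Aebp2 (-0.93), and the remodeller Ino80 (-0.46), whose call was lost without uninduced replicate 1, uninduced replicate 2 or IAA replicate 2. The acetyltransferase gene Kat2b had a peak at -1.15, called lower also relative to the median peak, and a stronger one at -0.51. Kdm1a (-0.24, adjusted p = 0.269), Kdm5b (-0.65, 0.0517) and Mta1 (-0.28, 0.160) did not pass. Cell cycle genes had 7 of 8 peaks lower at 4 of 46 listed genes (median -0.59), and the exception was a peak of the inhibitor gene Cdkn1a (-0.34, adjusted p = 0.0795). Ribosomal protein genes had 8 of 8 lower at 7 of 83 (median -0.54, range -0.73 to -0.47), proteasome genes 2 of 2 at 2 of 39 (median -0.52) and respiratory chain genes 2 of 3 at 3 of 83 (median -0.60). Numbered zinc finger genes had 18 of 24 tested peaks lower at 23 of 365 genes (median -0.63), with Zfp57, which protects imprinted methylation, the only peak of this list called relative to the median peak (-0.96, or -0.41 relative to it). Of 7 peaks at 5 of 51 lineage transcription factor genes, 4 were lower with a median of -0.42. Gata6, of this list, did not pass (-0.40, adjusted p = 0.101). In ribosomal protein genes far from OCT4-site peaks the median was -0.54 over 64 peaks, and in far promoters of pluripotency genes -0.82 over 11.

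The 6 adjacent promoters with the highest changes among those with a mean of at least 1 RPKM were Chka, Oasl1, Sort1, Uggt2, Schip1 and Slc47a1, with changes of 0.24, 0.19, 0.07, 0.06, 0.05 and 0.05, of which 0 passed the test (adjusted p from 0.339 to 0.839). Chka, choline kinase alpha, had 2.59, 3.90 and 2.88 RPKM before and 3.44, 2.42 and 5.82 RPKM after IAA, so that its value rests on IAA replicate 3, without which the change was -0.088, and without IAA replicate 2 it passed at 0.0492. Oasl1, an interferon-induced gene, had 1.24, 0.975 and 1.27 RPKM before and 1.49, 1.16 and 1.36 RPKM after IAA. Libraries of both groups overlap in all 6 of them. Relative to the median peak these changes were 0.60 to 0.79, and none passed there.

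The promoters that differed most from their distal neighbours were Gls2, Hist1h3g and Bclaf3. Gls2, a mitochondrial glutaminase, had 2.44, 1.79 and 1.82 RPKM before and 2.28, 1.76 and 1.77 RPKM after IAA, whereas its distal peak 6036 bp away, with the octamer printed above, went from 2.43, 1.79 and 2.25 RPKM to 0.865, 0.671 and 0.982 RPKM. The groups overlap at the promoter and are apart at the distal peak, and the difference of the changes was 1.21 ± 0.21 (adjusted p = 0.0856). For Hist1h3g, a replication-dependent histone H3 gene, the difference was 1.16 ± 0.22 and for Bclaf3 1.12 ± 0.25 (adjusted p = 0.0856 and 0.137). In the other direction stood 2 peaks at Cdk6, a kinase of G1 phase, and Azin2, an antizyme inhibitor. The Cdk6 peaks changed by -0.93 ± 0.21 and -0.87 ± 0.21 and their shared distal peak by -0.03, and Azin2 by -1.14 ± 0.32 against -0.34. At the Azin2 promoter the groups overlapped, since IAA replicate 1 (1.97 RPKM) exceeded uninduced replicate 1 (1.84 RPKM). Its change ran from -1.61 to -0.70 when a library was left out. Differences of -0.90, -0.84 and -0.79 did not pass (adjusted p from 0.238 to 0.396).

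The adjacent promoters nearest to a distal OCT4-site peak were Plxnb2, a semaphorin receptor (245 bp), Gpx4, a lipid peroxidase (354 bp), and Gna13, a G protein subunit (364 bp), with changes of -0.45 ± 0.18, -0.49 ± 0.18 and -0.74 ± 0.18. Their distal peaks changed by -0.48, -0.61 and -0.88. Gpx4 had 6.05, 6.58 and 6.58 RPKM before and 4.90, 5.66 and 3.31 RPKM after IAA. All 3 were called lower, but Plxnb2 lost its call without uninduced replicates 1, 2 or 3 or IAA replicate 3, and Gpx4 without uninduced replicates 2 or 3 or IAA replicate 3. Tested promoters with the most distal OCT4-site peaks, of which 4 was the highest number, differed among themselves. Myh9, a myosin heavy chain gene with 4, missed the threshold (-0.39 ± 0.17), while H2-M5, also with 4, went from 7.74, 6.84 and 6.81 RPKM to 3.90, 4.19 and 3.19 RPKM (-0.91 ± 0.15). Myh9 overlapped between groups, with 7.29, 6.25 and 6.20 RPKM before and 6.43, 4.93 and 3.89 RPKM after IAA, and passed at 0.00453 without IAA replicate 1.

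Of the tested adjacent promoters, 73 lie within 1 kb of starts of 2 or more coding genes, so their signal belongs to either, as for Psmc2 and Dnajc2 or Zfp553 and Sept1. Starts on both strands were present at 6.48% of adjacent and 12.8% of far promoters.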

How the data were processed

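H3K27ac ChIP-seq of ZHBT-O4AID ESCs was analysed in 3 uninduced and 3 IAA libraries, grouped by their labels. The authors aligned reads to mm10 (GRCm38) with Bowtie2 2.3.4.3, called peaks with MACS2 on the pooled uninduced IPs and deposited an RPKM value per peak and library made with DiffBind, beside a pooled table with the OCT4 mark, of which only the mark and peak positions were used. Peak reads are whole multiples in 100% of values (tolerance 0.1), which gave depth. No count model was used, since RPKM is not a count. Peaks of at least 0.5 RPKM in either condition mean were tested on log2(RPKM + 0.1), which understates changes of low peaks, with limma 3.58.1 in R 4.3.3 (trend and robust, tested on simulated data), adjusted over 26457 peaks at 0.05. The pair fit used promoter minus nearest distal values over 1017 pairs. Library medians were compared by the exact permutation test. Starts came from GENCODE vM21 and sequence from GRCm38.p6. Members, gene lists and rules were chosen with earlier results of these data known. Named were the 6 largest falls without overlap and 6 least negative changes (mean at least 1 RPKM), all pluripotency list members, up to 3 of each other list by RPKM, 4 with the most distal peaks, 3 pairs at each end and the 3 nearest, while further genes of the lists are given as members of their list. Some genes that the rule names are not reported here. Alternatives are listed in the closing section. Replicates differed from each other by at least sampling noise (chi-square per degree of freedom 1.02 to 1.64).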

Additional observations from a re-analysis of the deposited data

How the results depend on the processing

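The fall at adjacent promoters, their larger fall than that of far promoters and their smaller fall than that of OCT4-site promoters and of their own distal peaks kept their direction under all alternatives run (pseudocounts of 0.5 and 1, no threshold or one of 1 RPKM, other distance and start windows, 1 peak per gene, added after seeing the data, and leaving out each library). The smaller fall than that of their distal peaks was no longer free of overlap (exact permutation p = 0.2) in 4 of them, with pseudocounts of 0.5 and 1, no threshold, and starts of any transcript of a coding gene. The median change was -0.46 with a pseudocount of 1, and -0.047 after centring on the median peak. The difference from far promoters was -0.14 with limits of 10 and 50 kb and -0.071 within groups of like RPKM. The difference from OCT4-site promoters was 0.061 with a pseudocount of 1, 0.053 with the 10 kb limit and 0.044 within groups of like GC content. The count of promoters lower after IAA was 24 with centred libraries, 22 after quantile normalization, 449 of 546 with the 10 kb limit, and 519 to 906 when a library was left out. With limma the pairs that passed were 4 and 6 with pseudocounts of 0.5 and 1, 0 to 11 when a library was left out, and 0 with no threshold, a threshold of 1 RPKM, other windows, the strongest in place of the nearest distal peak, or without trend and robust settings.

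Replicate numbers did not pair the libraries: deviations of same-numbered libraries correlated at -0.014, -0.091 and -0.061. With the replicate block 874 promoters were lower (834 without it) and 5 pairs passed. Of 74 named promoter peaks, 0 lost a call with the replicate block or pseudocounts of 0.5 or 1, 6 with no threshold and 4 without trend and robust settings. Named promoters near 0 changed sign when a library was left out, with ranges of -0.088 to 0.53 for Chka, -0.25 to 0.25 for Sort1, -0.039 to 0.26 for Uggt2, -0.033 to 0.14 for Schip1, -0.15 to 0.22 for Slc47a1 and -0.17 to 0.086 for Gls2. Depth limits single promoters, whose counting error of 9.09% to 13.2% per library adds to the spread between IPs, and 3 libraries a group cannot give an exact p under 0.1.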
